A study of Mus musculus with 30 samples.

Results

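Ribosome biogenesis genes driven by MYC were examined as a set of 38 listed genes, out of 55401 gene identifiers in the count table. The list holds nucleolar, RNA polymerase I and growth genes and was chosen by gene name, with earlier results of these data known. All 38 were among the 9445 genes with enough counts to test. RNA had been sequenced from the 3′ end in 30 libraries, each from a different line of mouse Eµ-Myc; p19ARF-/- B-cell lymphoma cells. In these cells a Myc transgene is driven by the immunoglobulin heavy chain enhancer, which is active in B cells, and the p19ARF tumor suppressor is absent. The transgene and the lack of p19ARF are common to every line, treated or not. There were 17 paclitaxel resistant lines, which had been evolved through repeated pulses of paclitaxel (a drug that stabilizes microtubules), 12 DMSO control lines passaged with the solvent instead, and the parental line in a single library. All lines descend from that parental line, so they are evolutionary replicates of a single tumor line and not separate tumors.

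Ribosomes are assembled in the nucleolus. RNA polymerase I transcribes a long precursor of the ribosomal RNAs, small nucleolar ribonucleoproteins (snoRNPs) modify it, and separate sets of factors cut, fold and export the small and the large subunit. MYC is a transcription factor that binds the E-box CACGTG together with MAX, and ribosome biogenesis and polyamine synthesis genes are among its best known targets in B cells.

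Library totals ran from 480919 to 6739131 counts, with the smallest in Pac C1. Of 10 B cell markers, 9 had counts in every library, and the list summed to 4513 to 10021 CPM in the DMSO control and paclitaxel resistant lines. Of 7 T cell markers, Cd3e and Cd4 had no count in any library, and the sum of the list was at most 26.4 CPM. Of 7 myeloid markers, Adgre1 and S100a8 had none and 2 had counts in every library, with a sum of 6.2 to 65.3 CPM. Cdkn2a, the locus of p19ARF, was at 0 throughout, though counts from the 3′ end would not separate its transcripts. On the first 2 principal components, 7 of the 29 libraries compared had a negative silhouette, that is, lay nearer the opposite treatment. The library labelled Pac H9 (-0.39) and that labelled DMSO 12 (-0.11) were the most negative, and the other 5 (DMSO 11, Pac B2, Pac E1, Pac E2 and Pac H4) lay between -0.04 and 0. Results that change without Pac H9 and DMSO 12 are given without both. The labels were kept as deposited. Labels from DMSO 12 on may be displaced by 1 library, which was not settled, and a value given for a named resistant line or for the parental line would then belong to a neighbouring library. The 6 libraries DMSO 11, Pac A6, Pac C11, Pac D4, Pac F10 and Pac G9 stood apart in another way. Their counts came from genes of longer transcripts, with a count-weighted mean log2 length of 11.01 to 11.14, against 10.88 to 10.96 in the other 23 libraries compared. They also lay highest on the first principal component, at 52.4 to 88.6 against -65.0 to 43.2. A technical difference of these libraries and a difference of expression in these lines cannot be told apart here. Fits without them, or with length as a covariate, may therefore remove either.

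The Myc level itself is the background of the set. Myc (chr15:61985391-61990374, GRCm38) stood at 669 to 1119 TMM-normalized counts-per-million (CPM) in the DMSO control lines, with a median of 836. In the paclitaxel resistant lines it ranged from 786 to 3028 CPM with a median of 1036, and the parental line was at 946 CPM. Pac C3 was far above all others at 3028 CPM, and DMSO 11 was the highest control line. The estimated log2 difference was 0.47 ± 0.15 (SE) and missed the threshold of 0.01 (edgeR quasi-likelihood test, adjusted p = 0.0517). Counts from the transgene and from the endogenous gene cannot be told apart.

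For most of the ribosome biogenesis genes no difference between the paclitaxel resistant and the DMSO control lines passed the test. Of the 38 genes, 2 were lower, Ppan and Rrp9, and none was higher (edgeR quasi-likelihood test, adjusted p under 0.01 over all genes). The direction is relative to the DMSO control lines, and the single parental library lay below all of them for both genes. Over all 9445 genes 2.2% were called, 0.995% as higher and 1.21% as lower, so 2 of 38 is too small a count to set the list apart. With an unadjusted p under 0.05 there were 9 genes of the set, 3 higher and 6 lower, while 25.1% of all genes passed that limit. The likelihood ratio test and DESeq2 each called 1 gene as higher, Cad. In bulk RNA, a lower level in every cell and fewer cells with a high level cannot be told apart. The median log2 difference of the set was 0.02, that of all genes tested 0.07, and 19 of the 38 estimates lay above 0, against 5343 of all 9445. The median of the set had no stable sign, running from -0.04 to 0.06 when 1 line was left out, and being -0.08 with transcript length as a covariate and 0.10 after thinning. Scaling by library totals alone moved the median of all genes to 0.19 and that of the set to 0.13, and Rrp9 then missed the threshold.

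**Figure D1:**
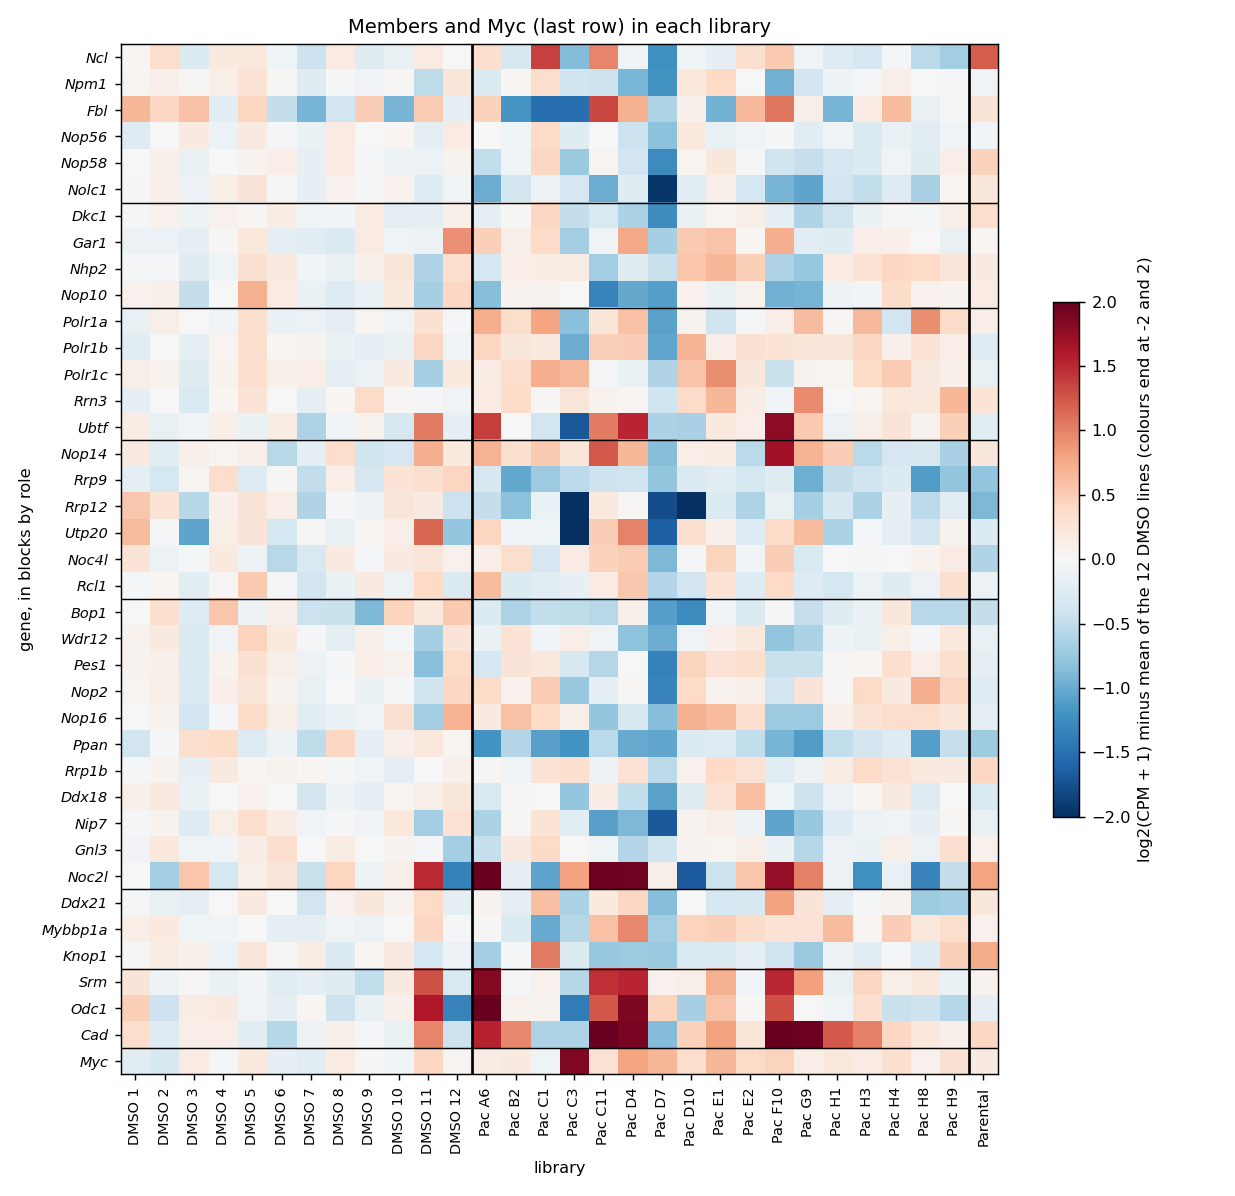
Each row is a gene in blocks by role, each column a library (DMSO control lines, paclitaxel resistant lines and the parental line, parted by black lines), and the colour is log2(CPM + 1) minus the mean of the 12 DMSO control lines, with colours ending at -2 and 2. Pac D7 is blue in nearly all rows, Pac C3 in many, and Cad, Srm, Odc1, Noc2l and Ubtf are red together in DMSO 11, Pac A6, Pac C11, Pac D4 and Pac F10.

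Ppan (chr9:20888175-20892178, plus strand) encodes a factor for the maturation of the large subunit. Its level in the DMSO control lines ran from 110 CPM in DMSO 7 over a median of 158 to 210 CPM in DMSO 8. In the paclitaxel resistant lines it ran from 67.7 CPM in Pac C3 over a median of 104 to 131 CPM in Pac E1. The ranges overlapped, but 10 of the 17 resistant lines lay below every control line and none above. The means were 160 ± 33.1 CPM (SD, n = 12) and 97.2 ± 24.1 CPM (SD, n = 17), a log2 difference of -0.72 ± 0.13 (SE; edgeR adjusted p = 0.00073), or 0.607 of the control level. Ppan was called in each of the 29 fits that left out a single line, with log2 differences between -0.76 and -0.68. It was lost only when all libraries were thinned to the smallest total (log2 difference -0.47, adjusted p = 0.477), where only 7 genes in all were called. The parental line, at 95.4 CPM, lay below every DMSO control line as well.

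Rrp9 (chr9:106475963-106485424, plus strand) encodes a protein of the U3 snoRNP, which guides the first cuts of the precursor on the way to the small subunit. The DMSO control lines spanned 73.8 to 141 CPM with a median of 107. The paclitaxel resistant lines spanned 47.2 to 88.8 CPM with a median of 78.1, so 7 of 17 were below every control line. The log2 difference was -0.56 ± 0.12 (SE; edgeR adjusted p = 0.00455). It stayed past the threshold without the libraries labelled DMSO 12 and Pac H9 (-0.51, adjusted p = 0.00932) and missed it without DMSO 4 (adjusted p = 0.0124) or without DMSO 11 (log2 difference -0.49). Without the 6 libraries of long transcripts the estimate was -0.55 (adjusted p = 0.0124) and that of Ppan was -0.60 (adjusted p = 0.00957). The parental library again lay low, at 59.6 CPM, below every DMSO control line.

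**Figure D2:**
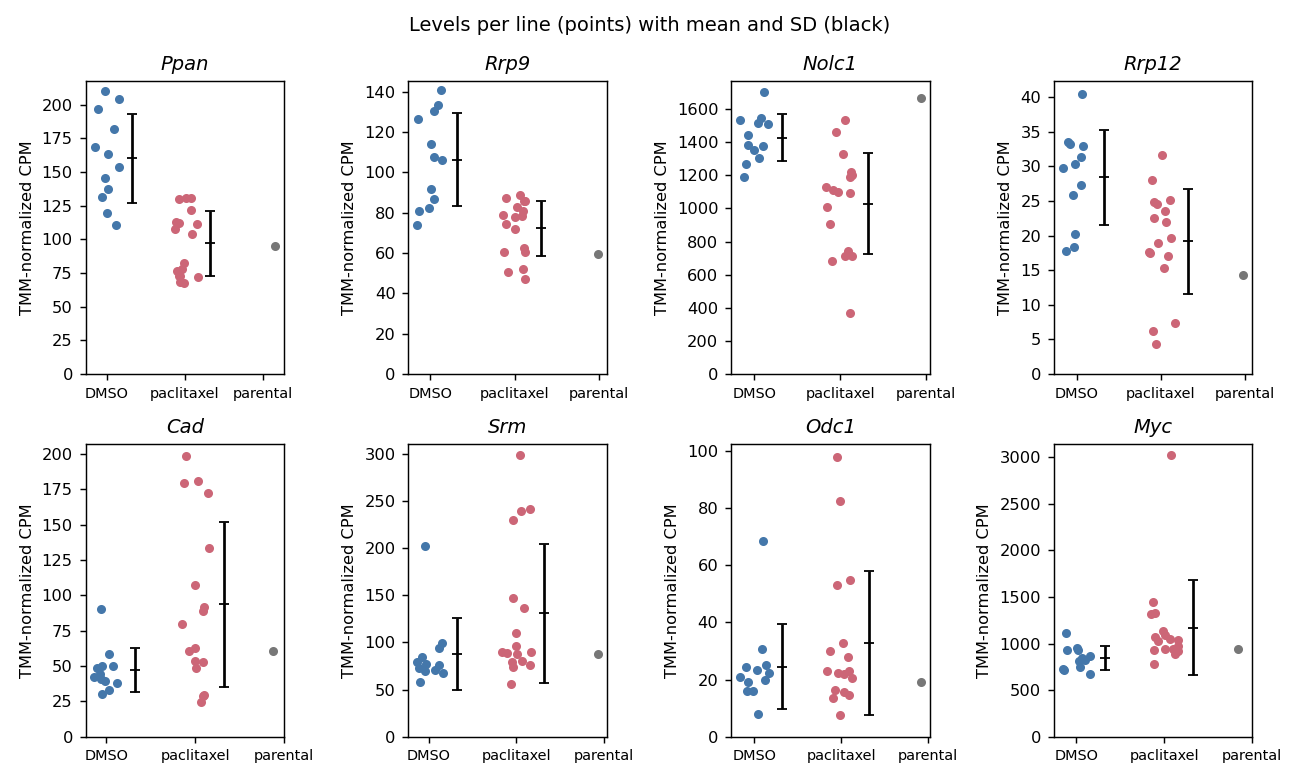
TMM-normalized CPM (linear axis from 0) of 8 genes, with a point per line, and the mean and SD in black beside the points of the 12 DMSO control and 17 paclitaxel resistant lines. Ppan and Rrp9 lie lower in the resistant than in the control lines, with overlapping ranges. The high Cad, Srm and Odc1 values are a few separate points, DMSO 11 among them.

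Nolc1 (chr19:46075863-46085530), a nucleolar phosphoprotein that binds snoRNPs, came next among the lower genes without passing. The DMSO control lines held 1192 to 1703 CPM with a median of 1414. The resistant lines held 367 CPM in Pac D7 to 1533 CPM in Pac E1 with a median of 1098. No gene of the set had more resistant lines under the whole control range, 12 of 17. The log2 difference was -0.47 ± 0.14 (SE; edgeR adjusted p = 0.0372), and -0.37 without the 6 libraries of long transcripts (adjusted p = 0.121). Rrp12, a factor for the small subunit, had an estimate of -0.56 ± 0.21 (SE; adjusted p = 0.0927), and Bop1, a partner of PES1 and WDR12 in the large subunit, of -0.42 ± 0.16 (SE; adjusted p = 0.0948).

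The other nucleolar scaffold and snoRNP genes gave no call. Ncl, nucleolin, ranged from 988 to 1666 CPM in the DMSO control lines (median 1335) and from 562 CPM in Pac D7 to 3392 CPM in Pac C1 in the resistant lines (median 1242). The resistant lines reached past the control range on both sides, 3 above and 4 below, around close medians (log2 difference 0.06 ± 0.19 SE). Npm1, nucleophosmin, had medians of 3852 CPM in the control and 3688 CPM in the resistant lines, with a log2 difference of -0.16 ± 0.14 (SE). Fbl, fibrillarin, the methyltransferase of box C/D snoRNPs, is close to its detection limit in these libraries with 0 to 31 counts in each. Its log2 difference was 0.17 ± 0.40 (SE; 95% interval -0.62 to 0.95), so a small or moderate difference was not detectable at this depth. Nop56 and Nop58, the core proteins beside it, had estimates of -0.12 and -0.19. Among the 4 genes of the box H/ACA snoRNPs, Dkc1, Gar1, Nhp2 and Nop10, the median was -0.05. Dkc1, the pseudouridine synthase, ran from 571 to 733 CPM in the control lines (median 656) and from 273 CPM in Pac D7 to 867 CPM in Pac C1 in the resistant lines (median 591). Nhp2, a core protein beside it, had 5 resistant lines above the control range and 3 below. Nop10 had none above and 6 below, with an estimate of -0.29 ± 0.17 (SE; edgeR adjusted p = 0.299).

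For all 5 listed genes of RNA polymerase I transcription the estimate was above 0, with a median of 0.25, and none passed. Of 15 other RNA polymerase I genes tested, 12 had an estimate below 0, with a median of -0.23. The listed genes are the subunits Polr1a (0.25), Polr1b (0.20) and Polr1c (0.25), the initiation factor Rrn3 (0.25 ± 0.12 SE, adjusted p = 0.186) and the DNA-binding factor Ubtf (0.44 ± 0.25 SE, adjusted p = 0.284). Polr1b stood at 37.2 to 58.3 CPM in the control lines (median 42.6) and at 20.7 to 70.2 CPM in the resistant lines (median 51.9). With thinned libraries the Polr1b estimate turned to -0.16. Polr1a, the largest subunit, stood at 90.2 to 129 CPM in the control lines (median 99.1). In the resistant lines it ran from 48.4 CPM in Pac D7 to 196 CPM in Pac H8 (median 121), with 8 lines above the control range and 4 below it.

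The small subunit genes had a median of -0.04 with 1 of 6 called (Rrp9), and the large subunit genes a median of -0.07 with 1 of 11 called (Ppan). Nop14 (0.33 ± 0.22 SE), Noc4l (0.09 ± 0.13 SE), Rcl1 (-0.01 ± 0.13 SE) and Utp20 (-0.07 ± 0.25 SE) are the small subunit factors not given above. Among the large subunit factors Rrp1b, a nucleolar protein, varied least of the set over the DMSO control lines, from 118 to 153 CPM (median 136). In the resistant lines it ran from 93.4 CPM in Pac D7 to 177 CPM in Pac E1 (median 153), 8 of them above the control range, and the estimate of 0.13 ± 0.09 (SE) did not pass.

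Nip7 had an estimate of -0.33 ± 0.16 (SE; edgeR adjusted p = 0.192) with 5 resistant lines below the control range and none above. Wdr12 (-0.14), Pes1 (-0.04), Nop16 (0.09), Gnl3, the GTPase nucleostemin (-0.07), and Ddx18, an RNA helicase (-0.11), lay closer to 0. Nop2 ranged from 202 to 355 CPM in the control lines (median 273) and from 106 CPM in Pac D7 to 442 CPM in Pac H8 in the resistant lines (median 289.8), with an estimate of 0.11 ± 0.15 (SE). The last nucleolar genes were the helicase gene Ddx21 (-0.03), Mybbp1a, which encodes a nucleolar MYB binding protein (0.23), and Knop1 (-0.18).

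Cad (chr5:31054780-31078479) carries the first steps of pyrimidine synthesis, Odc1 makes putrescine, the first polyamine, and Srm turns it into spermidine. Cad ranged from 30.4 to 90.7 CPM in the DMSO control lines (median 43.6), the top value being that of DMSO 11. In the resistant lines it ran from 24.3 CPM in Pac D7 to 199 CPM in Pac F10 (median 80.1), with 7 lines above the control range and 3 below it. Srm ran from 58.6 to 202 CPM in the control lines (median 76.7) and from 55.7 to 298 CPM in the resistant lines (median 90.4). Odc1 ran from 8.09 to 68.5 CPM (median 21.6) and from 7.71 to 98 CPM (median 23). For both, the control maximum was DMSO 11. The log2 difference of Cad was 1.00 ± 0.28 (SE; edgeR adjusted p = 0.0216), which missed the threshold. It passed without DMSO 11 (1.18, adjusted p = 0.00888), with the log10 library total as a covariate (1.15, adjusted p = 0.00316) and by DESeq2 (1.00, adjusted p = 0.0054).

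The high values of these enzymes stood in the 6 libraries of long transcripts. Cad was at 133 to 199 CPM in the 5 resistant ones, and the highest of the 23 other libraries, Pac H1, reached 107 CPM. Srm was at 148 to 298 CPM in all 6, against 55.7 to 137 CPM elsewhere. Odc1 exceeded the other 23 libraries in 5 of the 6 (53.2 to 98 CPM, against at most 32.9 CPM), the exception being Pac G9 at 22.1 CPM. Ubtf, Nop14 and Noc2l were also above all other 23 libraries in each of the 6. Between these 6 and the other 23 libraries, 9 of the 38 genes (23.7%) differed by over 0.5 upward in median log2 level and 9 (23.7%) downward, among them Nop10 (-1.01), Nop16 (-0.95), Nolc1 (-0.87) and Ppan (-0.70), against 33.6% and 25.6% of all genes, so high values there were not particular to the set.

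Without these 6 libraries the log2 difference of Cad was 0.52 ± 0.20 (SE; adjusted p = 0.127), that of Srm 0.21 (0.58 with them) and that of Odc1 0.02 (0.43 with them). Srm (adjusted p = 0.125) and Odc1 (adjusted p = 0.409) passed in neither form. Noc2l, a gene of the large subunit whose level varied most among the DMSO control lines (1.52 to 17.1 CPM), turned from 0.63 to -0.18. Across all 29 lines the level of Cad and the transcript length of a library had a Spearman rho of 0.68 (a description over libraries that also differ in depth). With that length as a covariate, an alternative chosen after the data were seen, the log2 difference was 0.45 ± 0.19 for Cad (SE; edgeR adjusted p = 0.147), 0.07 ± 0.13 for Srm (SE; adjusted p = 0.803) and -0.17 ± 0.22 for Odc1 (SE; adjusted p = 0.703). The enzymes' own transcripts are both long and short, with a longest transcript of 7137 bases for Cad and of 1338 bases for Srm. The mitochondrial share of counts also differed, at 12.4% in DMSO 11, 10.1% in Pac C11 and 11.9% in Pac D4, while Pac A6, Pac F10 and Pac G9 (2.29% to 3.84%) lay inside the 1.34% to 7.39% of the 23 other libraries.

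**Figure D3:**
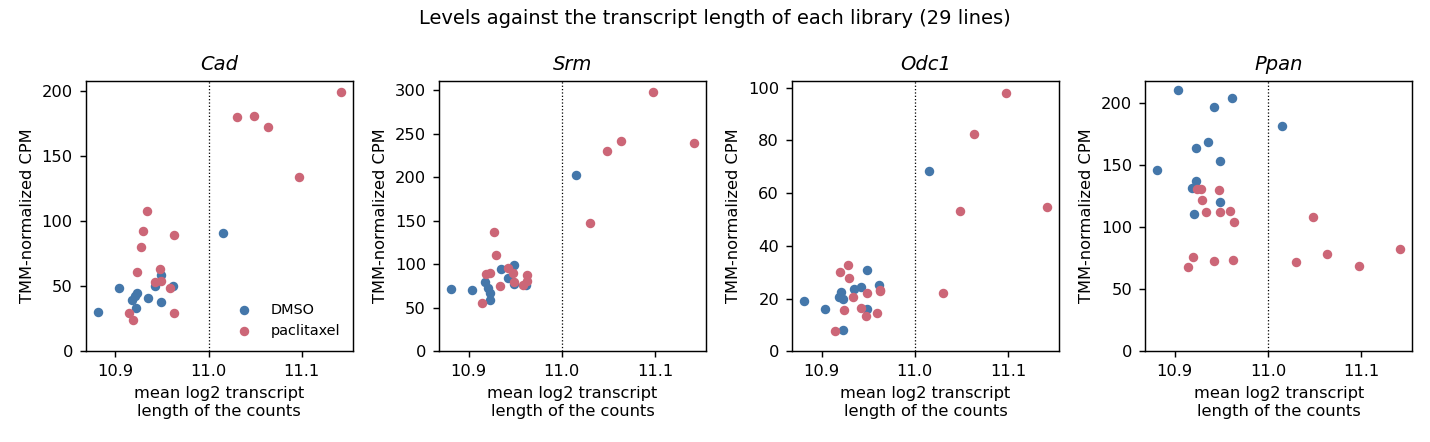
TMM-normalized CPM of 4 genes against the count-weighted mean log2 transcript length of each library, blue for the 12 DMSO control and red for the 17 paclitaxel resistant lines, with a dotted line at 11. To the right of the line lie 6 libraries, where Srm lies above all other libraries, Cad does so in the 5 resistant lines, and DMSO 11 has the highest Cad of the control lines, while the Ppan points lie inside the range of the rest.

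A further pattern belonged to single lines. In Pac D7, 31 of the 38 genes (81.6%) lay below the range of all 12 DMSO control lines and none above, while 17.6% of all genes tested lay below and 18.5% above. It held the lowest value of all 29 lines for 21 genes of the set, a count for which the share over all genes was not taken. The median difference from the control mean was -0.87 on the log2 scale, against 0.08 over all genes tested. Of the set, 16 genes (share over all genes not taken) were at least 2-fold under the control mean. These folds are from log2 CPM with a prior count of 2, which shrinks them for genes of low counts. Nolc1 was at 367 CPM (3.87-fold under), Nip7, a large subunit factor, at 148 CPM (3.2-fold), Pes1 at 153 CPM (2.56-fold), Nop2, an RNA methyltransferase of the large subunit, at 106 CPM (2.51-fold) and Nop58 at 532 CPM (2.43-fold).

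In Pac C3, 20 of 38 genes (52.6%) lay below the control range, against 18.8% of all genes, and 17 of them were also below it in Pac D7. For this overlap the share over all genes was not taken. Utp20 and Rrp12, both for the small subunit, had their lowest level of all 29 lines in Pac C3, at 4.28 CPM each on 5 counts apiece (7.4-fold and 5.81-fold under the control mean on the same log scale). Fbl, close to its detection limit throughout, had no count in Pac C3 and none in Pac C1. Ncl was at 719 CPM and Polr1a, the largest subunit of RNA polymerase I, at 57.4 CPM. In the other 15 resistant lines 2 to 12 genes of the set (5.26% to 31.6%) and 6.51% to 26.3% of all genes lay below the range. Both lines were singled out after their values were seen, and each is a single library without a replicate.

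Both counts were taken again under other scalings. In Pac D7, 28 to 30 genes lay below the range with RLE, upper-quartile or no factors (12.98% to 17.0% of all genes), and 34 when DMSO 11 and DMSO 12 were left out of the control range, where the share of all genes also went up, to 24.02%. In Pac C3 the corresponding counts were 20 to 21 genes (18.3% to 19.2% of all genes) and 22 (24.2%). With every library thinned to the smallest total the counts were 15 genes in Pac D7 (5.45% of all genes) and 8 in Pac C3 (2.74%). Of 141 other ribosome biogenesis genes tested, 83 (58.9%) lay below the control range in Pac D7. The share in Pac C3 was 33.3%, less than in Pac F10 (41.1%), Pac C11 (38.3%) and Pac G9 (38.3%), which are libraries of long transcripts. In the other resistant lines outside those libraries, Pac D7 aside, the share ran from 6.38% in Pac H4 to 15.6% in Pac H3. Summed B cell markers were 7357 CPM in Pac D7 and 6065 CPM in Pac C3, inside the 5465 to 9347 CPM of the DMSO control lines. The sum does not show single markers. Of the 10, 3 were lower and 0 higher in the resistant lines at an unadjusted p under 0.05 (edgeR quasi-likelihood test, 25.1% of all genes in either direction). The lowest Myc slope of the list, -6.53, was also the lowest over all genes. Summed T cell markers reached their highest level of all libraries in Pac D7, 26.4 CPM, against 1.78 to 11.7 CPM in the control lines, and were at 20.4 CPM in Pac C3, while myeloid markers (16.2 and 11.4 CPM) lay inside the control range. Their part in the low values was not tested. At equal depth Pac D7 had the most genes detected of all libraries, 12275, against 9852 to 12101 in the other resistant lines. The part of that difference in the levels was not tested.

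Whether the messages of these genes vary with that of Myc was looked at line by line. Only messages were counted, so the amount and activity of the MYC protein are not known here. Pac C3 and Pac D7 were singled out after their values were seen, and each is a single library. A part of Myc in their low values was not tested. Pac C3 had the highest Myc of all, 3028 CPM, and Pac D7 ranked 4th with 1323 CPM. In Pac E1, with 1326 CPM of Myc, the median of the set lay 0.12 above the control mean, and in Pac D4, with 1451 CPM, 0.02 above it.

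**Figure D4:**
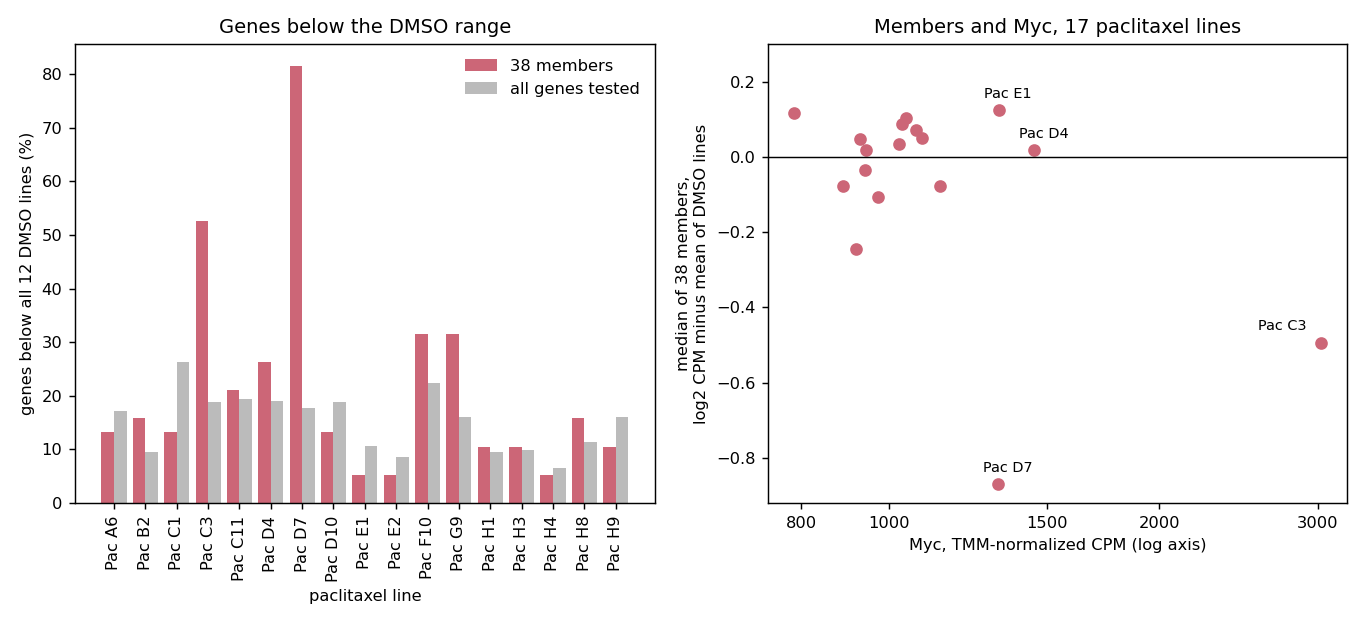
Left, the percentage of the 38 genes (red) and of all 9445 genes tested (grey) below the range of the 12 DMSO control lines, for each paclitaxel resistant line, highest in Pac D7 at 81.6%. Right, the median of the 38 genes as log2 CPM minus the control mean, against Myc on a log axis, where Pac C3 and Pac D7 lie lowest at 3028 and 1323 CPM of Myc and the other 15 lines lie between -0.25 and 0.12.

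The slope of each gene on the log2 Myc level was estimated over 29 lines with treatment in the model. A slope of 1 would mean that a gene doubles when Myc doubles. None of the 38 genes had a slope past the threshold in either direction (edgeR quasi-likelihood test, adjusted p under 0.01), where 0.0953% of all genes did, 0.0529% with positive and 0.0424% with negative slopes. With an unadjusted p under 0.05 there were 6 genes of the set, all with negative slopes, and 13.5% of all genes. The likelihood ratio test, which called 71 genes in all, called none of the set. The median slope of the set was -0.13, that of all genes 0.06, and 10 of 38 slopes were above 0, against 5260 of all 9444.

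The lowest p belonged to Nop2 (chr6:125131909-125144753). Its slope was -0.67 ± 0.18 (SE; 95% interval -1.02 to -0.31, adjusted p = 0.0688). Polr1a (chr6:71909053-71984935) had a slope of -0.65 ± 0.22 (SE; adjusted p = 0.143) and Ncl of -0.63 ± 0.26 (SE; adjusted p = 0.259). Nop58 (-0.36), Dkc1, the pseudouridine synthase (-0.33), and Polr1b (-0.46) followed. The intervals of Npm1 (-0.68 to 0.06), Cad (-1.11 to 0.74), Srm (-0.70 to 0.84), Odc1 (-0.81 to 1.33) and Fbl (-1.73 to 1.18) held 0. With bounds this wide for Cad, Odc1 and Fbl, neither a moderate slope in either direction nor none can be told apart. Rrp9 had a slope of 0.24 and Ppan of -0.03. With Myc as a covariate both remained called in the comparison of treatments, at -0.65 and -0.71.

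The negative median was not seen without Pac C3 and Pac D7. Without both, an alternative chosen after their values were seen, the median slope of the set was 0.12, against 0.09 for all genes, 23 of 38 slopes were above 0, and none was called. Nop2 then had a slope of -0.52 (unadjusted p = 0.0586), Polr1a of -0.36 and Polr1b of 0.26. With the 12 DMSO control lines alone the median was 0.15 (all genes 0.11) and with the 17 resistant lines alone -0.19 (all genes -0.01). A difference between the 2 treatments' slopes was not called for any gene (edgeR quasi-likelihood test, 0 of 9444, with 6.17% of all genes at an unadjusted p under 0.05). The intervals of the slope differences, paclitaxel minus DMSO, were wide, for Ncl from -2.20 to 0.50 and for Polr1a from -2.30 to -0.23.

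Correlations with Myc were also taken within each treatment. Over the 17 paclitaxel resistant lines Polr1a correlated with Myc at a Pearson r of -0.67 (permutation p = 0.00316, adjusted over all genes 0.206) and a Spearman rho of -0.78 (permutation p = 0.00024, adjusted 0.159). Without Pac C3 and Pac D4, farthest from the median Myc level, r was -0.87. With thinned libraries rho was -0.31. For Nop2, r was -0.64 (permutation p = 0.0212, adjusted 0.397) and rho -0.71 (permutation p = 0.00193, adjusted 0.325), and without those lines r was -0.69.

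Over the 12 DMSO control lines Polr1a had an r of 0.52 (permutation p = 0.0892, adjusted 0.436) and a rho of 0.45 (permutation p = 0.147, adjusted 0.777). Nop2 had an r of -0.37 (permutation p = 0.242, adjusted 0.592) and a rho of -0.22 (permutation p = 0.487, adjusted 0.885). Without DMSO 11 and DMSO 2, farthest from the median Myc level, r was 0.55 for Polr1a and 0.07 for Nop2. With thinned libraries Polr1a had an r of 0.12 and a rho of 0.04. All tests were two-sided with 100000 permutations, over 38 genes in each treatment and both measures, and no gene of all 9444 passed the adjusted threshold in either treatment. With an unadjusted permutation p under 0.05 for Pearson's r, 4 of the 38 genes and 1254 of all genes were found in the control lines, and 5 and 979 in the resistant lines. For Spearman's rho the counts were 0 and 647 in the control lines and 2 and 708 in the resistant lines. The median r of the set was 0.14 in the control and -0.22 in the resistant lines (0.03 for all genes in both), and the median rho was 0.06 and -0.08 (0.02 for all genes in both).

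The E-box was looked for before the transcription starts. RefSeq promoters (GRCm38.p6) were matched for 33 of the 38 genes. CACGTG, which reads the same on both strands, was in the 250 bases before the start in 2 of them (6.06%), Nop2 and Rrn3, and in 6.86% of 27025 genes with a promoter. The following sequences show both genes with the motif, Nop2 with the lowest p on the Myc slope and Rrn3 with a high one (unadjusted p = 0.857), and Polr1a, the gene of lowest p without it, all on the plus strand, 5′ to 3′ up to the base before the RefSeq start, in lower case with CACGTG in capitals. Those of Ppan and Rrp9, the 2 called genes, were added after their values were seen.
Nop2, chr6:125131633-125131882: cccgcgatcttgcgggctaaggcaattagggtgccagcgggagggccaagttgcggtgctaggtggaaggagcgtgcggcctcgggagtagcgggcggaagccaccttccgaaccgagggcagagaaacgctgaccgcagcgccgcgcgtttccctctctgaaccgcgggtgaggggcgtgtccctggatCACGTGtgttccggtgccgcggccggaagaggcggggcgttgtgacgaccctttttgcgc
Rrn3, chr16:13780449-13780698: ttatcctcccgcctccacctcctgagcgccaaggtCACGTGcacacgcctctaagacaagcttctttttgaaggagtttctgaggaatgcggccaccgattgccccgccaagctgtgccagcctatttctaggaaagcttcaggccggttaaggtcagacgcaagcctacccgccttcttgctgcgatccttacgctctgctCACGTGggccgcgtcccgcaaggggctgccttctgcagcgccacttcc
Polr1a, chr6:71908803-71909052: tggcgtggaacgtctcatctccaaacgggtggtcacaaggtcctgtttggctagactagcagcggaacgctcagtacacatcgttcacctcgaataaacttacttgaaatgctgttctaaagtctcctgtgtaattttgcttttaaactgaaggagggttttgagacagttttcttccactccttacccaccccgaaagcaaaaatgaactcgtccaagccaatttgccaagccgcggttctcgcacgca
Ppan, chr9:20887925-20888174: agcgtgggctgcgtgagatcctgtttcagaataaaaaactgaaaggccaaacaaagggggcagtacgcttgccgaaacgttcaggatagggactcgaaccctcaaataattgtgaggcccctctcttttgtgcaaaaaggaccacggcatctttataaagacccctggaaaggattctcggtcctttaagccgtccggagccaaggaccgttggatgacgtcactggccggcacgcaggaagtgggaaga
Rrp9, chr9:106477059-106477308: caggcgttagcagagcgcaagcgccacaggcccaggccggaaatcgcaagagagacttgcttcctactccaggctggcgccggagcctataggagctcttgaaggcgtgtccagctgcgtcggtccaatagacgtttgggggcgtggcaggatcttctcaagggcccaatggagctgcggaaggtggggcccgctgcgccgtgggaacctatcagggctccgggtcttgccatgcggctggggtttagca

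In Nop2 the motif began 60 bases before the start, and Rrn3 had 2, the first 215 bases before. With the first 50 transcribed bases included, 5 of the 33 genes (15.2%) held the motif, against 8.09% of all. The 3 further sites, each shown in a window of 30 bases, lay after the start.
Pes1, 2 bases after the start base: ccctaggcagggCACGTGcgggaggaagta
Utp20, 37 bases after: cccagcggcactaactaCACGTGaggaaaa
Mybbp1a, 40 bases after: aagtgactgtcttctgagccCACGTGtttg
Of the genes with the motif before the start, Nop2 had the slope on Myc given above and Rrn3 had -0.03, with a 95% interval of -0.36 to 0.30. A match is no evidence of binding, and a missing match says nothing of MYC at sites outside the window.

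The pairwise correlations within the set were compared with those of all genes. Over the 703 pairs of the set the median Spearman rho was 0.14 in the 12 DMSO control lines and 0.20 in the 17 resistant lines, and over all pairs of genes tested it was 0.00 in both. In the resistant lines 23% of the pairs had a rho above 0.5, against 10.1% of all pairs, and 20.9% against 6.72% in the 12 resistant lines outside the libraries of long transcripts. Npm1 and Nop16 were the closest pair in the resistant lines at 0.95, and Nop16 and Nop10 in the control lines at 0.97. Of the PES1, BOP1 and WDR12 proteins, which act as a complex, the messages of Pes1 and Wdr12 had a rho of 0.94 in the control and 0.67 in the resistant lines, and those of Pes1 and Bop1 of 0.17 and 0.03. Ppan and Rrp9 were at 0.72 and 0.54, Cad and Odc1 at 0.80 and 0.57. In the 12 resistant lines outside the libraries of long transcripts the rho of Cad and Odc1 was 0.23 and that of Ppan and Rrp9 was 0.78. These are descriptions over libraries that also share differences of depth and transcript length.

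The wider pathway was called about as often as genes at large. Of 141 further ribosome biogenesis genes tested, in lists of small subunit processome, large subunit assembly, RNA polymerase I, snoRNP and exosome factors, 1 was higher and 2 were lower in the resistant lines, with a median of -0.07. By list, 1 of 45 small subunit, 1 of 52 large subunit, 1 of 15 RNA polymerase I, 0 of 16 snoRNP and 0 of 13 exosome genes were called, against 2.2% of all genes. With an unadjusted p under 0.05 there were 9 higher and 21 lower of the 141, against 1406 higher and 962 lower of all 9445. Pdcd11, an rRNA processing factor of the small subunit, was lower by 0.87 ± 0.18 on the log2 scale in the resistant lines (SE; edgeR adjusted p = 0.00281). The means were 91.1 ± 20.2 CPM in the control lines (SD, n = 12) and 50.4 ± 23.6 CPM in the resistant lines (SD, n = 17). Taf1d, a subunit of the selectivity factor of RNA polymerase I, was lower by 0.62 ± 0.14 (SE; adjusted p = 0.00512). Ddx56, a nucleolar helicase for the large subunit, was higher by 0.68 ± 0.15 (SE; adjusted p = 0.00455). Of 31 further polyamine and nucleotide enzymes and 11 genes of the MYC, MAX and MXD network none was called, where 3 and 4 had an unadjusted p under 0.05. On the Myc slope none of the 141 genes was called, with a median of -0.05 and 14 at an unadjusted p under 0.05 (13.5% of all genes). Of these 14, 13 had negative slopes, and of the 1276 among all genes 607 did.

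The counting sets limits for some genes. Within the last 500 bases of 7 genes of the set (Nop56, Dkc1, Nhp2, Bop1, Noc2l, Mybbp1a and Knop1) lies a gene of the opposite strand, and counts there may be split or lost where the counting ignored the strand. Npm1 and Odc1 have processed copies in the mouse genome, so their levels are uncertain to the extent that reads were shared.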

How the data were processed

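The authors prepared 3′ digital gene expression libraries from total RNA, mapped the reads with STAR 2.5.1b on the mouse assembly GRCm38 and deposited raw counts per gene. Whether molecular identifiers were collapsed or strand was used is not given in the sources used here. Deposited counts, in whole numbers without normalization, were used for 12 DMSO control lines, 17 paclitaxel resistant lines and the parental line, grouped by the labels. The 38 genes and the other lists were chosen with earlier results of these data known.

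edgeR 4.0.16 in R 4.3.3 (filterByExpr, TMM factors, quasi-likelihood F test, Benjamini-Hochberg adjustment over all genes, threshold 0.01) compared paclitaxel with DMSO in 29 libraries, and estimated the slope on log2 Myc CPM (prior count 2) with treatment as a term and its interaction. The fits were tested on simulated data with 4-fold changes, Myc slopes of 3 or -3 and a slope difference of 12. They recovered 172 of 181, 185 of 199 and 192 of 199 changed genes, with 4, 0 and 0 false calls. These effects are larger than the estimates of the set, so the recovery of smaller effects was not tested. Intervals are estimates ± 1.96 SE and cover these lines only. With this multiplier they are somewhat narrower than the F test implies. Correlations used two-sided tests with 100000 permutations (numpy 2.4.6). Transcript lengths and positions are from gencode M21, where the study names M25. Named genes were, beside those chosen after their values were seen, those past the threshold, the 5 lowest p per test, the lowest and highest SD over the control lines (Rrp1b and Noc2l), and Myc, Ncl, Npm1, Fbl, Polr1b, Odc1, Srm and Cad. From each other list, called genes were named. Alternatives were RLE, upper-quartile or no factors, a likelihood ratio test, DESeq2 1.42.0, other filters and thresholds, covariates, thinning and libraries left out. Phenotype groups and library pools are not in the labels and were not used. The p-values measure the spread between lines of a single tumor.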

Additional observations from a re-analysis of the deposited data

Results flagged for a closer look

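The parental library entered no comparison. In it, 5 of the 38 genes (13.2%) lay above all 12 DMSO control lines, a share near the 10.7% of all genes tested. They were Ncl (3024 CPM, against at most 1666), Nop58 (1768, against at most 1454), Dkc1 (832, against at most 733), Rrp1b (181, against at most 153) and Knop1 (415, against at most 294). Another 5 (13.2%, against 11.0% of all genes) lay below the range, Ppan, Rrp9, Rrp12, Polr1b and Noc4l. It is a single library, so none of this has a replicate check. No formal outlier test was run in the groups of 12 and 17 lines.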

How the results depend on the processing

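Ppan was lower in all 15 other settings and called in 14, and Rrp9 was lower in all 15 and called in 12. No gene of the set was called on the Myc slope in any setting or leave-one-out fit. Among named genes, 419 values kept direction and call, 33 turned, 5 gained and 4 lost the call, where no replicate was left out. The transcript length covariate and the fits without the 6 libraries of long transcripts or without Pac C3 and Pac D7 were chosen after the data were seen. No paired analysis was possible because the paclitaxel titles carry no replicate numbers. By the lowest count in a library, depth limits Fbl (0), Noc2l (1), Utp20 (5) and Rrp12 (5) most, with Odc1 (9) next. The thinned fit tested 36 of the 38 genes.

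For paclitaxel against DMSO, 208 genes were called. The count was 448 with the likelihood ratio test, 491 with DESeq2, 714 at adjusted p under 0.05, 321 without DMSO 12 and Pac H9, 338 without DMSO 11 and Pac C3, 119 with Myc as covariate, 7 after thinning, and 139 to 299 leaving out a line. Genes of the set called higher numbered 1 with the likelihood ratio test, DESeq2, the looser threshold, the log10 total as covariate, without DMSO 11 and Pac C3 or without Pac C3 and Pac D7, and 0 to 1 leaving out a line. Those called lower numbered 1 with library totals only or without the 6 libraries of long transcripts, 0 after thinning, and 1 to 2 leaving out a line. Estimates turned with the length covariate for Fbl (-0.36), Ncl (-0.15), Noc2l (-0.25) and Odc1 (-0.17), without the 6 libraries for Ncl (-0.077) and Noc2l (-0.18), and after thinning for Polr1b (-0.16). Ncl ran from -0.077 to 0.11 leaving out a line. The causes were not tested.

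For the Myc slope, 9 genes were called. The count was 16 with upper-quartile factors, 110 with library totals only, 71 with the likelihood ratio test, 30 without a filter, 20 with a CPM filter, 1 without DMSO 11 and Pac C3, 2 after thinning, 44 with the length covariate, 56 without the 6 libraries, 0 without Pac C3 and Pac D7, 43 without a treatment term, 1 with DMSO lines only, 1 with paclitaxel lines only, 105 at adjusted p under 0.05, and 4 to 31 leaving out a line (4 without DMSO 8 or DMSO 10, 31 without Pac A6). The slope of Cad turned to 0.70 with totals only, 0.23 with the CPM filter, 0.16 without DMSO 11 and Pac C3, 0.70 after thinning, 0.89 without Pac C3 and Pac D7, 0.62 without a treatment term and 1.12 with DMSO lines only. Fbl turned to 0.54, 0.11, 0.27, 0.76 and 0.71 with totals only, the CPM filter, without DMSO 11 and Pac C3, without Pac C3 and Pac D7, and with DMSO lines only. With DMSO lines only, Ncl was at 0.12, Polr1a at 0.44 and Polr1b at 0.48. Polr1b was at 0.16 after thinning and 0.26 without Pac C3 and Pac D7. Odc1 and Srm turned with the log10 total as covariate (-0.053 and -0.087), without the 6 libraries (-0.43 and -0.25) and with paclitaxel lines only (-0.48 and -0.43), and Srm without DMSO 12 and Pac H9 (-0.063). After thinning, rho with Myc in the DMSO lines turned to 0.64 for Nop58 and 0.15 for Dkc1. Leaving out a line, slopes ran from -0.57 to 0.76 for Cad, -0.51 to 0.69 for Fbl, -0.31 to 1.31 for Odc1, -0.54 to 0.0096 for Polr1b and -0.25 to 0.92 for Srm. The causes were not tested.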

Other observations

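Cytosolic ribosomal protein genes, a list drawn by symbol after the results above were known, were looked at beside the biogenesis factors. Of 82 tested, Rps19 was higher in the paclitaxel resistant lines (log2 difference 0.60) and Rps25 (-0.73) and Rpl27 (-0.72) were lower (edgeR adjusted p = 0.00403, 0.00455 and 0.00281), where 2.2% of all genes were called. With an unadjusted p under 0.05 there were 4 higher and 23 lower genes of the 82, against 1406 higher and 962 lower of all 9445. The median of the list was -0.15 with 61 of 82 estimates below 0, and that of the 141 other biogenesis genes was -0.07 with 84 below 0. Over all genes tested the median was 0.07, with 4102 of 9445 below 0. In Pac D7, where 81.6% of the biogenesis set lay below the control range, 8 of the 82 ribosomal protein genes did (9.76%, against 17.6% of all genes) and 14 lay above it (17.1%, against 18.5%). The share above was 18.3% with RLE factors (19.1% of all genes), 24.4% with upper-quartile factors (21.2%), 24.4% after thinning (13.7%) and 39.0% with library totals only (24.2%). In Pac C3 the counts were 4 below (4.88%, against 18.8% of all genes) and 11 above (13.4%, against 17.7%). The difference between the lists was not tested. Processed copies of ribosomal protein genes can share reads, so single members are uncertain.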
